A study of Homo sapiens with 18 samples.

Results

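The plasminogen activator system and the matrix metalloproteinases (MMPs) were followed through 9 genes: the activators PLAU (urokinase) and PLAT (tissue-type activator), the urokinase receptor PLAUR, the activator inhibitor SERPINE2 (protease nexin 1), the proteases MMP1, MMP9, MMP10 and MMP14, and the metalloproteinase inhibitor TIMP1. They were found by exact gene symbol among the 40916 symbols counted, and each of the 9 was present. The activators cut the circulating zymogen plasminogen into plasmin, a broad protease that digests fibrin and can open latent MMPs, and PLAUR holds urokinase at the cell surface. MMPs cut collagens, other matrix proteins and surface proteins, and TIMPs block their active site. In epithelia the system is known for its part in wound closure, migration and invasion.

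Poly(A)-selected RNA was sequenced in 18 libraries, 3 biological replicates in each of 6 groups. MCF10A is a non-transformed human mammary epithelial line, used here with a histone H2B-GFP label and grown in F12:DMEM with horse serum, EGF, hydrocortisone, cholera toxin and insulin. HCT116 is a human colorectal carcinoma line, used here unlabelled and p53-null and grown in McCoy's 5A with fetal bovine serum. Each line was cultured alone, and both were cultured together from a 50-50 mixture, whose medium is not given. Each culture was either not irradiated (NIR) or irradiated with 10 Gy (IR); RNA was taken at day 2 according to the titles and 72 h after irradiation according to the series description. The lines differ in tissue of origin, p53 status and medium at once, and these cannot be told apart in any comparison between them. The labels say nothing of whether HCT116 p53-null is 1 clone.

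Libraries held 25737818 to 40839835 counts and 19356 to 23225 genes with a count. Of the counts from 1 to 10, 68.3% were even, so read mates may have been counted one by one, and every low count below may stand for fewer fragments. The irradiated libraries showed higher CDKN1A, which encodes the cell cycle inhibitor p21, and lower MKI67, a proliferation marker, in the 3 cultures: the log2 fold changes of CDKN1A were 1.76 in MCF10A, 2.33 in HCT116 and 2.19 in mixed cultures, and those of MKI67 were -1.57, -1.84 and -1.82. The summed level of 10 basal mammary markers was 9098 to 9709 CPM (counts scaled to a library total of 1000000) in MCF10A NIR and 269 to 367 CPM in HCT116 NIR, where TP63 was at 0; after irradiation it was 12912 to 13197 CPM in MCF10A and 443 to 501 CPM in HCT116. Of 8 intestinal markers, CDX1 was at 0 in the HCT116 libraries, 3 reached 1 CPM in HCT116 NIR, and 5 were at 0 in MCF10A NIR.

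The 9 genes spanned a wide range of transcript levels. Per kilobase of exon (CPM per kb), TIMP1 was the most abundant member in each of the 6 groups, at 113 in MCF10A NIR and 39.8 in HCT116 NIR. MMP14, a membrane-anchored collagenase, followed in MCF10A NIR at 72.4 CPM per kb, ahead of PLAU at 26.3, SERPINE2 at 15.2, PLAT at 7.13 and PLAUR at 6.05. The secreted proteases were near the limit of detection there, with 0.176 CPM per kb for MMP1 (interstitial collagenase), 0.156 for MMP9 (gelatinase B) and less for MMP10 (stromelysin 2). PLG, which encodes plasminogen itself and is mainly a liver gene, had 0 counts in the MCF10A NIR, HCT116 NIR and mixed IR libraries and at most 6 counts over the 3 libraries of any other group.

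**Figure D1:**
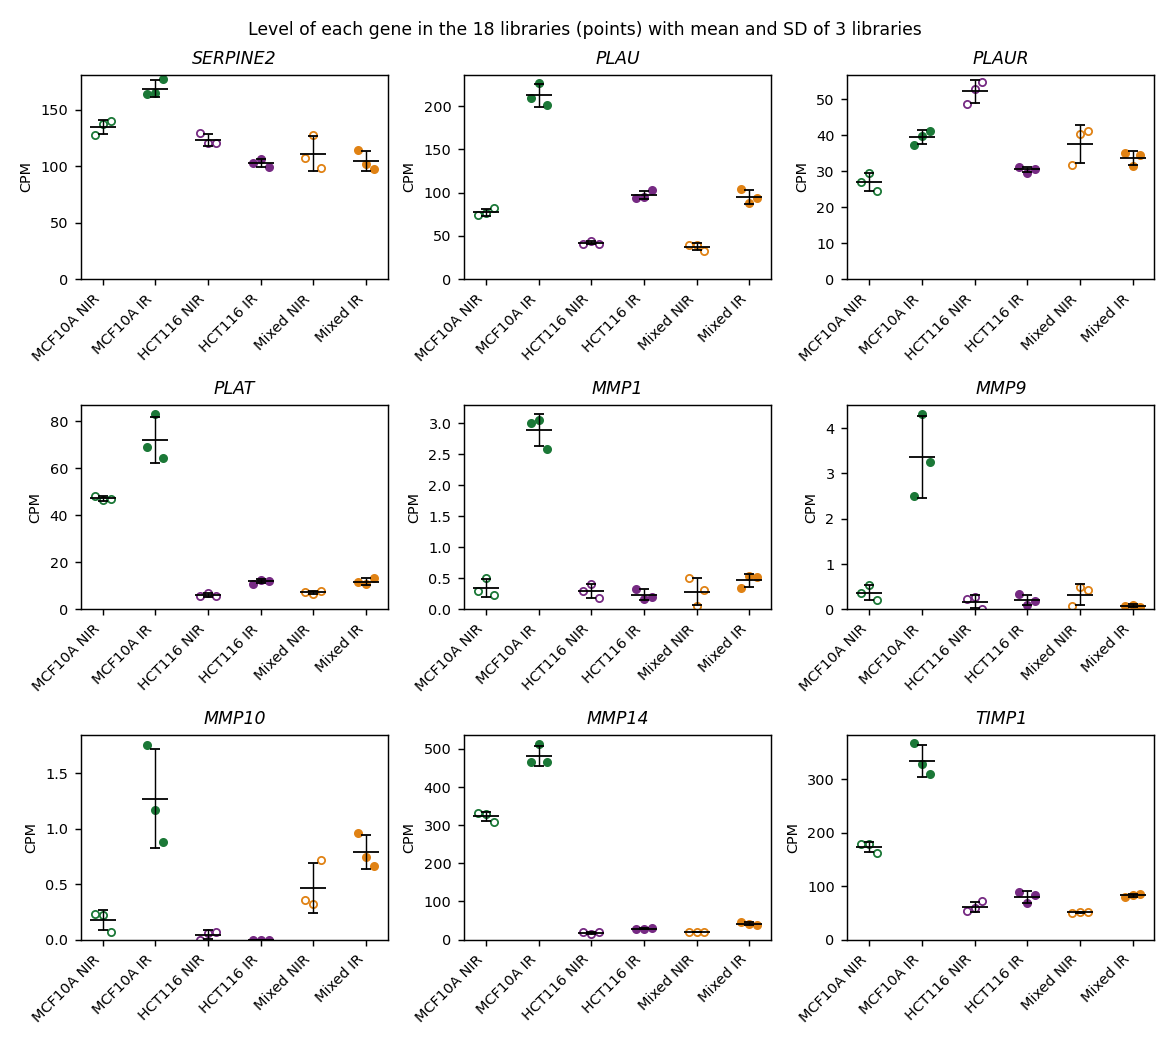
Level of each gene in CPM (vertical axes, linear, 1 panel per gene) in the 18 libraries (points; open NIR, filled IR), with the mean and SD of 3 libraries as black bars. MCF10A IR held the highest mean of 8 genes, and for PLAUR the highest was HCT116 NIR at 52.1 CPM.

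PLAU rose after irradiation in all 3 cultures. The 3 MCF10A NIR libraries had 74.1, 76.3 and 82.0 CPM of PLAU and the 3 MCF10A IR libraries 209.7, 227 and 201 CPM. The HCT116 libraries had 41.0, 44.6 and 41.2 CPM without irradiation and 94.1, 95.3 and 103 CPM with it. In neither line did the irradiated libraries overlap the others. The fold change was 2.71 in MCF10A (log2 1.44 ± 0.053 SE, adjusted p = 9.9e-19), 2.31 in HCT116 (1.21 ± 0.068, adjusted p = 7.2e-13) and 2.48 in mixed cultures (1.31 ± 0.082, adjusted p = 2.5e-11; edgeR quasi-likelihood test, Benjamini-Hochberg over all genes tested). In order of level, MCF10A IR stood first at 213 CPM, HCT116 IR and mixed IR overlapped at 97.4 and 95.1 CPM, and MCF10A NIR, HCT116 NIR and mixed NIR followed at 77.5, 42.3 and 37.6 CPM without overlap. The difference between the lines' responses was small: HCT116 minus MCF10A was log2 -0.30 ± 0.085 (adjusted p = 0.0062), beside a median of -0.10 over all genes. That call was lost in 6 of 19 other settings, the value being -0.15 without MCF10A IR replicate 2, -0.18 without HCT116 IR replicate 2, -0.21 without MCF10A IR replicate 1 and -0.20 without mitochondrial and the 10 most abundant genes.

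C10orf55 lies antisense over PLAU, which spans 73908832 to 73917494 of chromosome 10 (RefSeq, GRCh38.p14, as for the positions below). The kit marks strand, but the strand setting of the counting is not given, so reads of the 2 genes may not be fully separated. C10orf55 had at most 1.02 CPM as a group mean, and its change with irradiation did not pass the test in any of the 3 cultures.

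PLAT, the second activator, was mainly an MCF10A transcript. Its level was 48.3, 46.3 and 47.0 CPM in the MCF10A NIR libraries and 5.67, 7.15 and 5.58 CPM in the HCT116 NIR libraries, a difference of 8.82-fold (log2 -3.14 ± 0.104 for HCT116 minus MCF10A, adjusted p = 1.0e-14). Irradiation raised it to 68.9, 83.1 and 64.2 CPM in MCF10A, where the fold change was 1.50 (adjusted p = 8.2e-08). In HCT116 it rose to 11.0, 12.7 and 12.2 CPM, a 1.96-fold change (adjusted p = 4.4e-06). No irradiated library overlapped the untreated ones of its own culture, and mixed cultures rose 1.58-fold, from 7.36 to 11.8 CPM. The 2 lines' log2 responses differed by 0.31 ± 0.147, which did not pass the test (adjusted p = 0.11), although it did in 5 of 19 other settings, among them 0.53 (adjusted p = 0.0047) without MCF10A IR replicate 2 and 0.43 (adjusted p = 0.033) without HCT116 NIR replicate 2.

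The receptor PLAUR (chromosome 19, 43646095 to 43670169) moved in opposite directions in the lines. In MCF10A it rose from 26.9, 29.5 and 24.4 CPM to 37.3, 39.8 and 41.1 CPM (1.44-fold, log2 0.52 ± 0.081, adjusted p = 2.8e-06). In HCT116 it fell from 48.7, 52.9 and 54.9 CPM to 31.2, 29.6 and 30.7 CPM (log2 -0.77 ± 0.079, adjusted p = 2.1e-08). The groups did not overlap in either line. HCT116 was the higher line without irradiation (log2 0.75, adjusted p = 4.0e-07) and the lower one after it (log2 -0.60, adjusted p = 1.2e-07). The difference between the responses was log2 -1.37 ± 0.115 (adjusted p = 7.8e-10), and it stayed between -1.45 and -1.23 in 19 other settings.

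SERPINE2 (chromosome 2, 223975045 to 224039286), which blocks urokinase, tissue-type activator, plasmin and thrombin, also parted between the lines, by a smaller amount. It rose from 128, 137 and 139.8 CPM to 164, 165 and 177 CPM in MCF10A (1.23-fold, adjusted p = 5.4e-06) and fell from 129, 120.3 and 120.2 CPM to 103, 106 and 99.5 CPM in HCT116 (log2 -0.25 ± 0.061, adjusted p = 0.0014). Neither pair of groups overlapped. The responses differed by log2 -0.63 ± 0.078 (adjusted p = 4.0e-07). Without irradiation the lines overlapped in CPM, at 135 CPM in MCF10A and 123 CPM in HCT116; the log2 difference of -0.33 passed the test (adjusted p = 4.6e-05) but was -0.12 with upper-quartile normalization (adjusted p = 0.053), a scaling that moved the median of all genes from 0.05 to 0.25. MCF10A IR aside, the neighbouring groups in the order of SERPINE2 levels overlapped all the way down to HCT116 IR at 103 CPM.

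MMP14 (chromosome 14, 22836585 to 22847758), which sits in the plasma membrane and activates MMP2, showed the widest gap between the lines without irradiation, among the 6 genes tested there. The MCF10A NIR libraries had 331, 329.7 and 309 CPM and the HCT116 NIR libraries 20.3, 14.5 and 18.9 CPM, 20.8-fold less (log2 -4.38 ± 0.093, adjusted p = 1.9e-17). Irradiation took it to 467, 512 and 466 CPM in MCF10A (1.47-fold, log2 0.55 ± 0.045, adjusted p = 1.9e-11) and to 28.4, 28.0 and 30.7 CPM in HCT116 (1.63-fold, 0.71 ± 0.110, adjusted p = 9.5e-06). Every irradiated library lay above every untreated one of its line. The log2 responses differed by 0.07 ± 0.108 (adjusted p = 0.65), which does not show that they were alike.

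TIMP1, the inhibitor (chromosome X, 47582436 to 47586789), rose in both lines. In MCF10A it went from 179, 179 and 162 CPM to 367, 328 and 309 CPM (1.90-fold, log2 0.92 ± 0.052, adjusted p = 1.2e-14). In HCT116 it went from 53.9, 58.8 and 71.3 CPM to 89.3, 67.8 and 83.5 CPM, where the libraries overlapped and the fold change was 1.31 (log2 0.39 ± 0.096, adjusted p = 0.0014). The difference between the responses was log2 -0.61 ± 0.127 (adjusted p = 4.0e-04). TIMP1 was 3.25-fold lower in HCT116 than in MCF10A without irradiation and 4.90-fold lower after it.

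**Figure D2:**
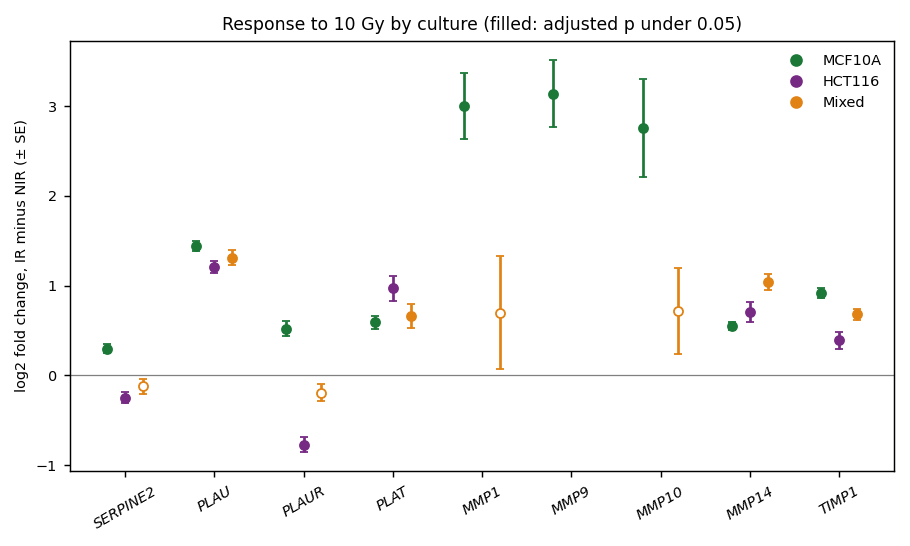
Log2 fold change after 10 Gy (IR minus NIR, vertical axis, ± SE of the edgeR fit over 6 libraries) for each gene in MCF10A, HCT116 and mixed cultures; filled points passed an adjusted p of 0.05, open points were tested and did not, and genes without a point were not tested in that culture. PLAU, PLAT, MMP14 and TIMP1 lie above 0 in the 3 cultures, while PLAUR and SERPINE2 lie above 0 in MCF10A and below it in HCT116.

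Of the secreted proteases, MMP1 and MMP9 reached a few CPM only in MCF10A IR. MMP10 had its highest mean there, 1.27 CPM, and overlapped mixed IR at 0.792 CPM. MMP1 had 10, 18 and 7 counts in the MCF10A NIR libraries and 82, 84 and 88 in the MCF10A IR libraries, or 0.347 and 2.89 CPM. MMP9 had 12, 19 and 6 counts and then 68, 118 and 111, or 0.364 and 3.36 CPM. MMP10 had 8, 8 and 2 counts and then 48, 32 and 30, or 0.176 and 1.27 CPM. These 3 genes passed the filter on low counts only through the irradiated group, so their calls in MCF10A say little beyond the counts: the fold changes were 8.00, 8.83 and 6.78, with log2 SE of 0.370, 0.370 and 0.545 (adjusted p = 7.1e-08, 3.2e-08 and 8.9e-05).

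In HCT116 the same 3 genes stayed low and were not tested for irradiation. MMP1 had 28 counts over the 3 NIR libraries and 23 over the 3 IR libraries, and MMP9 had 17 and 20. MMP10 had 4 counts over the HCT116 NIR libraries and 0 in the HCT116 IR libraries, which allows up to 0.0302 CPM, or 3 counts over the group; such limits cover counting error only. Against that limit MMP10 was at least 41.1-fold higher in MCF10A IR, or at least 20.6-fold with counts halved. For MMP1 the IR groups of the lines differed by 14.3-fold and for MMP9 by 18.9-fold; both genes passed the filter of that comparison only through MCF10A IR. The log2 responses, HCT116 minus MCF10A, differed by -3.41 ± 0.709 for MMP1 (adjusted p = 4.0e-04) and by -3.01 ± 0.902 for MMP9 (adjusted p = 0.0098). In that fit each gene reached the filter's 0.308 CPM in 6 of 12 libraries, 3 of them outside MCF10A IR, so neither needed that group to be tested. The MMP9 difference did not pass without HCT116 NIR replicate 2 (-2.53, adjusted p = 0.070). MMP10 entered that fit only through MCF10A IR, and its fitted difference, log2 -6.33 ± 1.897, depends on the group at 0 and is not a bound.

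MMP10, MMP1 and MMP3 (stromelysin 1) are related genes, MMP10 (102770502 to 102780628) and MMP1 (102789919 to 102798160) neighbour each other on chromosome 11, and reads shared between close relatives may have been split or dropped by the counting. MMP3 had 0.395 CPM in MCF10A NIR and 3.15 CPM in MCF10A IR. Because fibroblasts are a known source of these proteases, fibroblast markers were read beside them: the summed level of 5 such genes was 121 to 133 CPM in MCF10A NIR and 247 to 261 CPM in MCF10A IR. Nearly all of it was DCN (119 and 240.2 CPM), COL1A1 was at 6.52 and 14.3 CPM, LUM and PDGFRB were under 1 CPM, and COL3A1 was at 0 in both groups. Leukocyte markers summed to at most 8.94 CPM and endothelial markers to at most 3.44 CPM in any library. The part of other cell types in these levels was not tested.

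Counted over the 9 genes, MCF10A IR minus MCF10A NIR gave 9 called higher of 9 tested, where 55.4% of all 15154 genes tested were called, 26.2% higher and 29.2% lower. Of these 9, the 6 that were above the filter in both groups are the ones that could have gone either way. HCT116 gave 4 called higher and 2 lower of 6 tested, beside 25.3% and 27.2% of all genes, 52.5% together. HCT116 was below MCF10A for 5 of 6 genes tested without irradiation and above it for 1, where 74.8% of all genes were called, 36.1% lower and 38.7% higher. After irradiation it was below for 9 of 9, where 74.9% of all genes were called, 36.8% lower and 38.1% higher. Responses were called lower in HCT116 than in MCF10A for 7 of 9, where 37.3% of all genes were called, 21.9% lower and 15.4% higher. Groups without overlap in CPM were common as well: they made up 60.6% of genes for irradiation in MCF10A, 58.8% in HCT116 and 56.4% in mixed cultures, and 77.7% and 78.9% between the lines without and with irradiation. MMP1, MMP9 and MMP10 passed the filter of the comparison after irradiation through MCF10A IR alone, as MMP10 did for the responses. With backgrounds this high, a single call says little by itself, and the size and overlap given for each gene carry the description.

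Promoter sequence was looked at for the members that rose together in MCF10A, since several MMP and plasminogen genes are textbook targets of AP-1, the dimer of FOS and JUN family proteins, which binds TGAGTCA. RefSeq promoter windows (GRCh38.p14) were matched for 6 of the 9 genes, 8 windows in all; MMP1, MMP9 and PLAT were not among them. In the 250 bases before the start site, TGAGTCA on either strand was in 4.2% of 35116 windows of all genes, and the relaxed form TGANTCA, which includes the first, in 6.57%. TATAAA, searched on the sense strand, was in 6.8%. Among the members, PLAUR had TGAGTCA at -186 and MMP10 had TGAATCA at -67 and TATAAA at -31. The PLAU, SERPINE2, MMP14 and TIMP1 windows held none of the 3 in these 250 bases. Sequence farther from the start site was not searched, so elements there cannot be judged. The MMP10 stretch is shown whole because MMP10 also stands apart in the mixed cultures, the PLAUR stretch for its match, and the TIMP1 stretch as the upstream sequence of the most abundant member, 5′ to 3′ on the gene's strand, with matches in capitals.
MMP10, chr11:102780629-102780878, minus strand, bases -250 to -1: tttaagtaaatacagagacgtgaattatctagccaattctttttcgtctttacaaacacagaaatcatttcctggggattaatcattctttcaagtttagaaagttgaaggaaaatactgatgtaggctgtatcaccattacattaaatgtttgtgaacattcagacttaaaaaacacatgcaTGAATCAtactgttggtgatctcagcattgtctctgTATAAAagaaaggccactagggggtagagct
PLAUR, chr19:43670339-43670365, minus strand, bases -196 to -170: cacaactccaTGAGTCAgggccgagcc
TIMP1, chrX:47582186-47582312, plus strand, bases -250 to -124: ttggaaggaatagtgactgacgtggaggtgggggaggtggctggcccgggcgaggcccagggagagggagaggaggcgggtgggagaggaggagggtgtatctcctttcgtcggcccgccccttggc
A match is a description of these letters and not a measured binding site. Whether AP-1 acts on any of these genes was not tested.

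Transcripts of the AP-1 and ETS factors themselves were counted in a list of 16 genes, each tested in every culture. In MCF10A 8 were called higher and 3 lower after irradiation (median log2 0.16, all genes 0.00), where 26.2% and 29.2% of all genes were. BATF3 passed the filter on low counts there only through MCF10A NIR. ATF3 rose from 1.40 ± 0.216 to 10.3 ± 0.937 CPM (log2 2.85), FOSB from 2.03 to 5.72 CPM (1.48) and EHF, an epithelial ETS factor, from 56.0 to 106 CPM (0.90). In HCT116 7 were called in each direction, where 25.3% of all genes were called higher and 27.2% lower. ATF3 rose from 27.8 to 92.3 CPM (log2 1.74), whereas FOS fell from 18.3 to 6.03 CPM (log2 -1.61) and ETS1 from 40.9 to 20.5 CPM (-0.99). Over the 12 libraries of both lines 8 of the 16 responses were called lower in HCT116 and 2 higher, with a median of -0.45 beside -0.10 over all genes, of which 21.9% were called lower and 15.4% higher.

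Among 32 other genes of the plasminogen system, the inhibitor SERPINB2 had the largest change in MCF10A of those that were called and reached 5 CPM. In MCF10A 25 could be tested, of which 15 were called higher and 4 lower (median log2 0.40, all genes 0.00), beside 26.2% and 29.2% of all genes. Of the 25, CPB2 and NID1 passed the filter on low counts only through MCF10A IR, so the count and the median are no support for a rise of the list. SERPINB2, or PAI-2, rose from 27.1 ± 3.10 to 162 ± 10.2 CPM (log2 2.56 ± 0.066, adjusted p = 7.3e-22). LYPD3, a protein related to the urokinase receptor, rose from 13.6 to 36.7 CPM (log2 1.41). In HCT116, 9 were called higher and 7 lower of 24 (median 0.14, all genes 0.01), beside 25.3% and 27.2% of all genes. NID1 passed that filter only through HCT116 IR and CPB2 only through HCT116 NIR. There SERPINB8, an inhibitor of the ovalbumin type, rose from 3.74 to 9.50 CPM (log2 1.36), while ENO1, a glycolytic enzyme that also binds plasminogen at the cell surface, fell from 3458 to 1661 CPM (log2 -1.05).

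Other MMPs were counted next. In MCF10A, 7 of the 12 that could be tested, of 19 on the list, were called higher (median log2 0.87), beside 26.2% of all genes. Of the 12, MMP3, MMP13, MMP21 and MMP25 passed the filter on low counts only through MCF10A IR, so the count and the median are no support for a rise of the list. MMP19 rose from 2.32 ± 0.553 to 6.87 ± 1.32 CPM (log2 1.55 ± 0.207), MMP2 (gelatinase A) from 6.64 ± 0.166 to 13.0 ± 0.701 CPM (0.94 ± 0.123) and MMP15, a membrane-type MMP, from 4.92 to 8.53 CPM (0.77). In HCT116, 2 were called higher and 2 lower of 10, beside 25.3% and 27.2% of all genes. Of those 10, MMP20 passed the filter only through HCT116 IR. MMP15 fell in HCT116 from 69.4 ± 4.22 to 49.7 ± 5.25 CPM (log2 -0.48, adjusted p = 2.2e-05). Against the same shares, inhibitors and activators of MMPs were called higher for 10 of 14 in MCF10A (median 0.38) and higher for 6 and lower for 2 of 14 in HCT116 (median -0.03). LCN2, which binds MMP9 and protects it from degradation, rose in both, from 0.862 to 5.82 CPM in MCF10A (log2 2.72) and from 5.48 to 29.6 CPM in HCT116 (2.44). TIMP3 rose in MCF10A, from 73.3 ± 7.26 to 117 ± 2.13 CPM (log2 0.66), as did CD63, a TIMP1-binding tetraspanin, from 198 to 314 CPM (0.65); in HCT116 the changes of TIMP3 (-0.91, adjusted p = 0.097) and CD63 (-0.02) did not pass. HPX, a heme carrier with an MMP-like fold, and PCSK7, a proprotein convertase, rose in HCT116 by log2 1.05 and 1.03. HPX passed the filter on low counts in MCF10A only through MCF10A IR.

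ADAM and ADAMTS proteases, the related families that shed surface proteins and cut proteoglycans, were called higher for 10 and lower for 1 of 16 in MCF10A (median log2 0.45) and higher for 2 and lower for 4 of 15 in HCT116 (median -0.19). The shares of all genes called higher and lower were 26.2% and 29.2% in MCF10A and 25.3% and 27.2% in HCT116. ADAMTS4 passed the filter on low counts in MCF10A only through the IR group, and ADAM22 only through the NIR group. ADAMTS1 rose from 2.89 to 11.3 CPM in MCF10A (log2 1.95), ADAMTS6 from 13.9 to 28.4 CPM (1.02) and ADAM19 from 37.9 to 67.0 CPM (0.80). In HCT116 ADAM19 rose by log2 0.52, and ADAM22 and ADAM9 fell by 0.50 and 0.44 on the log2 scale. The lists were chosen with earlier results of these data known, so these counts describe them and are no independent support.

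**Figure D3:**
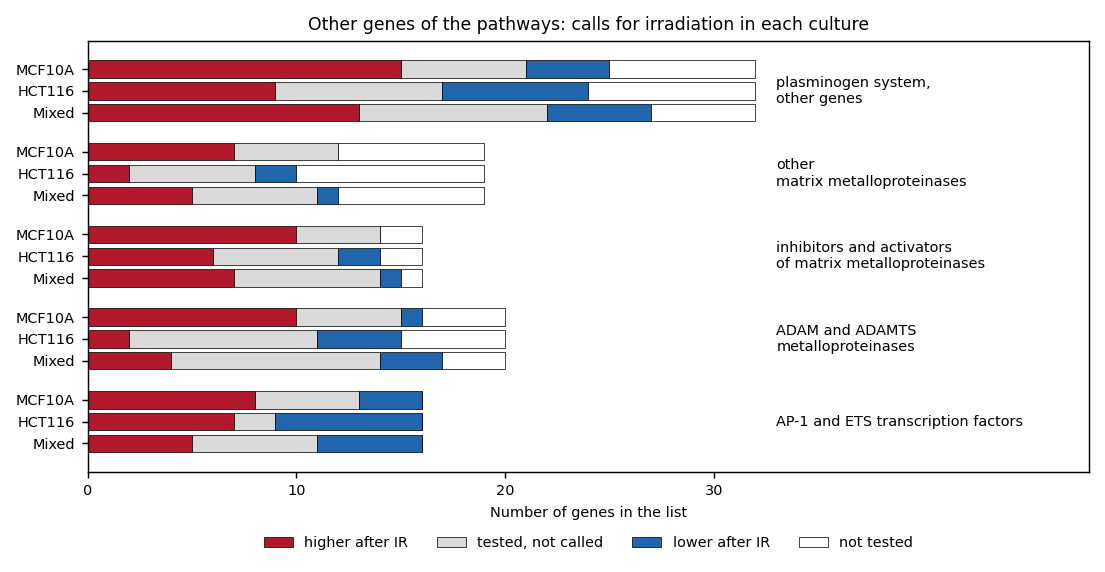
Number of genes in each of 5 lists (horizontal axis) called higher after 10 Gy, tested without a call, called lower, or not tested, in MCF10A, HCT116 and mixed cultures. In the list of other MMPs MCF10A has 7 called higher of 12 tested, and HCT116 has 2 called higher and 2 lower of 10.

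Apart from MMP10, MMP14 and PLAUR, no member tested gave a call between the mixed cultures and HCT116. MCF10A RNA was estimated at 0.447% ± 0.0528 (SD, n = 3) of the NIR mixtures and 1.24% ± 0.0662 of the IR mixtures. The estimate came from genes with at least 20 CPM in 1 line and under 1 CPM in the other, a level that was not subtracted. From genes of at least 50 CPM the estimate was 0.345% in NIR and 1.07% in IR. It takes each line to keep its monoculture profile in the mixture, which was not tested, and the SD covers only the spread between libraries. Single basal mammary markers differed: KRT17 was at 13.1 CPM and KRT5 at 2.72 CPM in mixed IR, where MCF10A IR held 915 and 2784 CPM. Their levels in HCT116 IR were 1.69 and 1.54 CPM. The estimate is a share of RNA, and fewer MCF10A cells and less RNA per MCF10A cell cannot be told apart in bulk RNA. The levels below are set against a weighted sum, meaning the monoculture levels of the same treatment added in these proportions. Comparisons of mixed with HCT116 cultures use the same HCT116 libraries as those above.

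Irradiation in mixed cultures gave 4 called higher of 8 genes tested, where 49.4% of all genes were called, 24.0% higher and 25.4% lower. They were PLAU, PLAT, MMP14 and TIMP1, each also called higher in HCT116 alone. MMP14 rose from 19.4, 19.7 and 21.2 CPM to 46.0, 42.0 and 38.1 CPM (2.05-fold, log2 1.04 ± 0.088, adjusted p = 2.8e-09), and TIMP1 from 49.8, 51.4 and 51.0 CPM to 80.4, 82.7 and 84.6 CPM (1.60-fold, 0.68 ± 0.064, adjusted p = 1.6e-08). Neither pair of groups overlapped. SERPINE2 (log2 -0.12, adjusted p = 0.27) and PLAUR (-0.19, adjusted p = 0.095) did not pass; PLAUR did without mixed NIR replicate 1 (-0.31, adjusted p = 0.0038) and without the filter on low counts (-0.21, adjusted p = 0.046), and SERPINE2 did without mixed NIR replicate 3 (-0.21, adjusted p = 0.041) and was at 0.00 without mixed NIR replicate 2. MMP9 had 2, 17 and 15 counts in the NIR mixtures and 3, 4 and 2 in the IR mixtures and was not tested.

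MMP10 was the member that stood farthest from HCT116 in the mixtures. The NIR mixtures had 10, 11 and 26 counts and the IR mixtures 34, 28 and 24, against 0, 2 and 2 and then 0, 0 and 0 in HCT116 alone. Every mixed library was above every HCT116 library. In IR the level of 0.792 ± 0.155 CPM was at least 26.2-fold higher than in HCT116 IR, or at least 13.1-fold with counts halved, and the mixed IR and MCF10A IR libraries overlapped in CPM. The weighted sum in IR was 0.0158 CPM, all of it from the MCF10A share, because HCT116 IR entered it at 0. The measured level was 50.2 times that sum. As HCT116 IR may hold up to 0.0302 CPM, 50.2 depends on the group at 0 and is no measure of size. In NIR the level was 10.3 times the sum of 0.0454 CPM. MMP10 passed the filter on low counts only through the mixed libraries, where it was high, so its 2 calls against HCT116 (adjusted p = 3.1e-05 in IR and 0.043 in NIR) add little to the counts above. The NIR call (log2 3.36 ± 0.840) was narrow besides, and leaving out any 1 of the 6 libraries ended the call, with adjusted p from 0.071 (without mixed NIR replicate 2) to 0.19 (without mixed NIR replicate 3); values without HCT116 NIR replicates 1, 2 and 3 were 0.16, 0.15 and 0.10, and 0.15 without mixed NIR replicate 1. Over all genes, 0.887% were called higher in mixed NIR than in HCT116 NIR and 5.08% in mixed IR than in HCT116 IR. MMP3 was at 0 in the 3 mixed IR libraries. The change from mixed NIR to mixed IR did not pass (log2 0.72 ± 0.482, adjusted p = 0.23), and the libraries overlapped.

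MMP14 was also above HCT116 in the irradiated mixtures, by 1.44-fold (log2 0.53 ± 0.082, adjusted p = 4.6e-05), with 42.0 ± 3.94 CPM against 29.1 ± 1.44 CPM and no overlap. The weighted sum came to 34.7 CPM, of which 5.98 CPM was the MCF10A part, and the 3 mixed libraries lay above it at a mean of 1.21 times. Without irradiation MMP14 differed by log2 0.18 ± 0.117 (adjusted p = 0.51), and its ratio to the weighted sum was 1.04. In IR 2 of 8 genes tested were called, where 8.56% of all genes were, 5.08% higher and 3.48% lower, and in NIR 2 of 8, where 2.04% were; MMP10 is 1 of the 2 in each, so the counts are not read against those shares.

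PLAUR was the second call in NIR. The mixtures had 31.6, 40.3 and 41.1 CPM and HCT116 alone 48.7, 52.9 and 54.9 CPM, without overlap (log2 -0.45 ± 0.096, adjusted p = 0.016; 1.15% of all genes were called lower and 19.4% did not overlap), which is 0.724 of the weighted sum. After irradiation the groups were close, at 33.7 and 30.5 CPM (log2 0.14 ± 0.079, adjusted p = 0.35), though still without overlap, as in 24.7% of all genes. The responses differed by log2 0.59 ± 0.126 (adjusted p = 0.019), 1 call of 9 where 0.830% of all genes were called, 0.681% higher and 0.149% lower. It was lost in 8 of 12 fits that left out a library, between 0.45 (adjusted p = 0.095, without mixed NIR replicate 1) and 0.58 (adjusted p = 0.052, without HCT116 IR replicate 1); the others were HCT116 NIR replicates 2 and 3, HCT116 IR replicates 2 and 3 and mixed IR replicates 1 and 3. The NIR difference itself was lost without mixed NIR replicate 1 (-0.34, adjusted p = 0.10), HCT116 NIR replicate 2 (-0.44, 0.087) and HCT116 NIR replicate 3 (-0.40, 0.074).

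PLAU, PLAT, SERPINE2 and TIMP1 gave no call between mixed and HCT116 cultures under either treatment. Their ratios to the weighted sum were 0.887, 1.17, 0.903 and 0.821 in NIR and 0.962, 0.931, 1.01 and 0.991 in IR. TIMP1 in NIR differed by log2 -0.26 ± 0.091 (adjusted p = 0.18) and PLAT by 0.28 ± 0.158 (adjusted p = 0.45); TIMP1 was at 49.8 to 51.4 CPM in the mixtures and 53.9 to 71.3 CPM in HCT116. MMP1 reached 0.466 ± 0.109 CPM in mixed IR, 1.75 times the weighted sum, from 12, 20 and 19 counts (adjusted p = 0.39 against HCT116 IR).

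**Figure D4:**
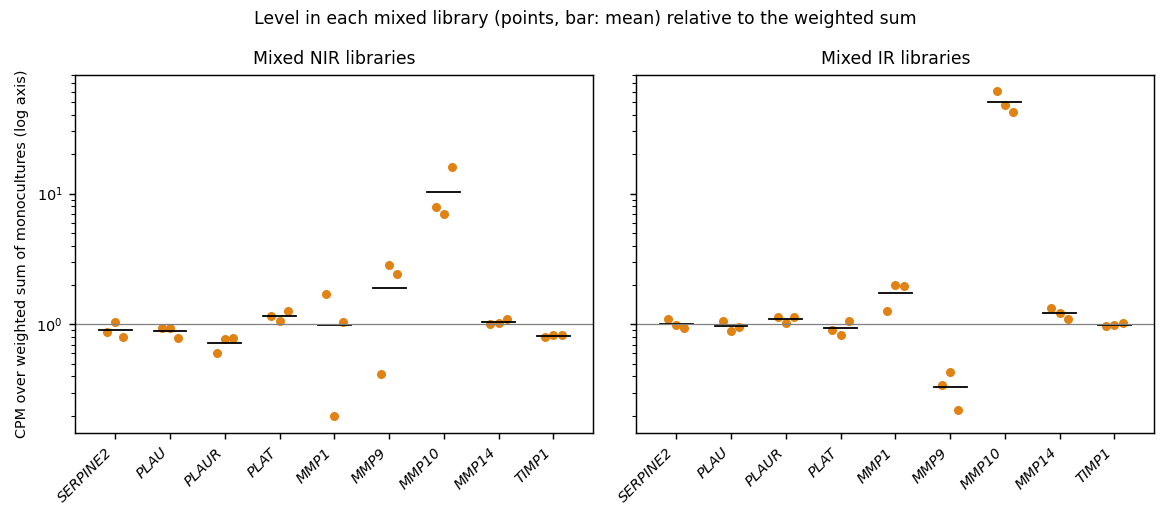
Level of each gene in each mixed library (points; bar, mean of 3) divided by the weighted sum of the monoculture levels (vertical axis, log scale; the grey line marks 1), for NIR mixtures on the left and IR mixtures on the right. MMP10 lies at a mean of 10.3 in NIR and 50.2 in IR, where the sum takes HCT116 IR at 0 and the ratio is no measure of size. MMP14 in IR lies at 1.21. Points of MMP1 and MMP9 rest on 20 counts or fewer per library.

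For the 6 members that reached 10 CPM, the genes of most like pattern over the 6 group means were searched among 10914 genes, by the root mean square difference of centred log2(CPM + 1). ACOX3, a peroxisomal oxidase, and TBC1D7, a subunit of the TSC complex, lay 0.02 and 0.03 from SERPINE2. TMEM40 lay 0.16 from PLAU, at 12.8 and 49.5 CPM in MCF10A NIR and IR and 9.18 and 18.6 CPM in HCT116. MST1R, a receptor kinase, and MAP1S, a microtubule protein, lay 0.09 from PLAUR. S100A11 and CCN1, a matricellular protein, lay 0.10 and 0.13 from PLAT; CA12, a carbonic anhydrase, and SLC2A9, a urate transporter, 0.18 and 0.22 from MMP14; and the lysosomal GM2A and SH3TC1 0.12 each from TIMP1. These are descriptions over 6 points that share their libraries.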

How the data were processed

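Levels of 9 genes were followed in 18 RNA-seq libraries of MCF10A, HCT116 and mixed cultures, without irradiation or after 10 Gy. The authors deposited 1 table of raw counts per library, by gene symbol. The submitters' processing notes name fastp, STAR, featureCounts and GRCh38, without versions; the annotation, the strand setting and whether mates were counted singly are not given in the sources used here. Totals ranged from 25737818 to 40839835 per library. CPM is a gene's count times 1e+06 over the library's total; CPM per kb divides it by the exon union of GENCODE v29.

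Each comparison was fitted over all genes with edgeR 4.0.16 in R 4.3.3 (TMM scaling, filterByExpr, 2-sided quasi-likelihood F test), using the compared groups only, with Benjamini-Hochberg adjustment and calls at an adjusted p under 0.05. Fold changes are those of the fit after TMM scaling, so they differ somewhat from ratios of the CPM given beside them. The SE of a log2 fold change follows from its size and its F statistic. Alternatives were upper-quartile scaling, DESeq2 1.42.0, no filter, the replicate number as a block, all 18 libraries in one fit, halved counts, counts without mitochondrial and the 10 most abundant genes, and leaving out each library. The fits were tested on simulated counts. Replicate libraries differed by a chi-squared of 4.77 to 14.0 per gene, so none was a copy; nothing beyond "biological replicate" says how they were kept apart, so p-values measure the spread between these samples.

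The MCF10A share of a mixed library came from 144 MCF10A-specific and 153 HCT116-specific genes in NIR, and 143 and 139 in IR, with at least 20 CPM in 1 line and under 1 CPM in the other. The members, lists and markers were chosen with earlier results of these data known. Of each list and irradiation comparison, up to 3 called genes with the largest change and at least 5 CPM in the higher group are named. A few genes that this rule and the search for like patterns picked are not reported here. For the fold limits, a group at 0 is set to a floor of 3 counts over its 3 libraries. The weighted sum takes such a group at 0.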

Additional observations from a re-analysis of the deposited data

Results flagged for a closer look

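Irradiation responses that differed between cultures by the test of the difference itself were marked for a second look. Between HCT116 and MCF10A, over 12 libraries, the log2 responses of 7 genes differed: SERPINE2 by -0.63, PLAU by -0.30, PLAUR by -1.37, TIMP1 by -0.61, MMP1 by -3.41, MMP9 by -3.01 and MMP10 by -6.33. PLAUR and SERPINE2 are the members that were called in opposite directions, higher after 10 Gy in MCF10A and lower in HCT116. MMP1, MMP9 and MMP10 are low outside MCF10A IR, with 28 and 23, 17 and 20, and 4 and 0 counts over the HCT116 NIR and IR libraries. MMP10 passed the filter on low counts only through MCF10A IR, so its call is no test, and with 0 counts in HCT116 IR its value is no measure of size. Of all genes tested, 37.3% gave such a difference.

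Between mixed cultures and HCT116, PLAUR alone among the members differed in its response, by log2 0.59, where 0.830% of all genes did. The NIR mixtures held 37.7 ± 5.25 CPM and HCT116 NIR 52.1 ± 3.19 CPM, and the IR groups held 33.7 and 30.5 CPM.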

How the results depend on the processing

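Of 540 values of members with 1 library left out, 505 kept their direction and their side of the threshold, 21 lost and 4 gained a call, and 10 turned sign. Of 493 under the other settings, the numbers were 484, 4, 4 and 1. Settings that gave a member no adjusted p are left out of these numbers. For mixed NIR minus HCT116 NIR they hold 11 values of MMP10, where SERPINE2 has 13. The turned values were those of uncalled differences. They lay near 0 apart from MMP1 for mixed NIR minus HCT116 NIR, at 0.26 and 0.45 with SE of 0.871 and 0.709, from low counts. Without 1 library, SERPINE2 lay between -0.21 and 0.00 for mixed IR minus NIR, and MMP14 between -0.06 and 0.23 for the response of HCT116 minus MCF10A. Likewise MMP1 lay between -0.65 and 0.45 for mixed NIR minus HCT116 NIR (0.26 without HCT116 NIR replicate 2). For mixed IR minus HCT116 IR the ranges were -0.06 to 0.07 for SERPINE2 (-0.01 without HCT116 IR replicate 3), -0.12 to 0.01 for PLAU, -0.12 to 0.05 for PLAT (0.02 without HCT116 IR replicate 2) and -0.07 to 0.12 for TIMP1, and PLAT was at 0.00 with all 18 libraries in one fit. Libraries of the same replicate number in different groups were correlated weakly at most (r from -0.0650 to 0.169 over 45 pairs, 14129 genes). For replicates 1, 2 and 3, r was 0.092, 0.037 and 0.169 between HCT116 NIR and mixed NIR. Between HCT116 IR and mixed IR it was 0.107, 0.049 and 0.027. Whether the number marks a shared batch in those groups was not tested. With the number as a replicate block, members called stayed at 9, 6, 4, 6, 9, 7, 2, 2 and 1 in the 9 comparisons. All genes called went from 335 to 716 for mixed NIR minus HCT116 NIR and from 1467 to 2220 for mixed IR minus HCT116 IR. Members called for mixed NIR minus HCT116 NIR fell from 2 to 1 with DESeq2 and with halved counts, and to between 0 and 1 without 1 library. All genes called there were 520 with DESeq2, 671 without the filter, 768 with all 18 libraries and 145 to 313 without 1 library; for mixed IR minus HCT116 IR they were 866 to 1312 without 1 library. For the response of mixed minus HCT116, members called were 0 to 1 without 1 library, and all genes went from 150 to 293 with DESeq2, 336 without the filter and 64 to 197 without 1 library. The MCF10A shares were 0.345% and 1.07% from genes of at least 50 CPM. The median of all genes moved from 0.05 to 0.28 (DESeq2) for HCT116 NIR minus MCF10A NIR and from 0.00 to 0.15 for MCF10A IR minus NIR. For HCT116 NIR minus MCF10A NIR, 13 other settings gave log2 -4.47 to -4.17 for MMP14 and -3.26 to -2.94 for PLAT. They gave -1.84 to -1.50 for TIMP1, -1.12 to -0.87 for PLAU and 0.67 to 0.95 for PLAUR. The causes were not tested. Depth limits MMP1, MMP9 and MMP10 in HCT116 and mixed libraries, where 3 counts over a group amount to 0.0275 to 0.0318 CPM.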

Other observations

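Other genes of the same families also stood away from HCT116 in the mixed cultures; they were picked after their values were seen, from the lists described above. MMP2, the gelatinase that MMP14 activates, had 69, 96 and 57 counts in the NIR mixtures and 270, 204 and 267 in the IR mixtures, against 0, 6 and 0 and then 8, 4 and 1 in HCT116 alone. Its level of 6.83 ± 1.20 CPM in mixed IR was 23.8 times the weighted sum of the monocultures, and 24.8 times in NIR (edgeR adjusted p = 2.4e-13 and 1.9e-04 against HCT116). MMP2 was under the filter's cutoff in every HCT116 library and passed it only through the mixed libraries, where it was high. Its p-values therefore add little to the counts. TIMP3 was at 7.37 ± 1.42 CPM in mixed IR and 0.598 ± 0.147 CPM in HCT116 IR, 3.61 times the weighted sum, although MCF10A IR held 117 CPM. MMP7 and MMP13 were at 2.02 and 0.591 CPM in mixed IR, 3.28 and 5.41 times the weighted sum.

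LCN2 went the other way. It was at 29.6 ± 2.02 CPM in HCT116 IR, 5.82 CPM in MCF10A IR and 6.50 ± 1.45 CPM in mixed IR, which is 0.222 of the weighted sum (log2 -2.20 ± 0.125, adjusted p = 8.7e-14), and in NIR it was 0.292 of the sum. HTRA1, a secreted serine protease that was nearly absent from HCT116 at 0.0912 CPM in IR, lay at 1.56 CPM in mixed IR, 1.04 times the weighted sum. Among the 16 AP-1 and ETS factors, FOS, JUNB, ELF3 and EHF were called lower in mixed NIR than in HCT116 NIR, by log2 -0.95, -0.64, -0.56 and -0.26. Of all genes, 1.15% were called lower there. In IR, 3 of the 16 were called lower, ELF3 and EHF among them, and 1 higher, where 3.48% and 5.08% of all genes were. FOS differed by log2 0.09 in IR, which was not called.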
